A study of Mus musculus with 28 samples.

Results

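The 7 genes described here mark or serve the thick ascending limb of the loop of Henle in mouse kidney: Slc12a1, Kcnj1, Bsnd, Umod, Casr, Ptger3 and Enox1. They were chosen with earlier results of these data known. They were taken by symbol from a count table of 56748 genes, through the Ensembl identifiers of its rows, and all 7 were among the 17573 genes with enough counts to be tested. The libraries were made from polyadenylated RNA of whole kidneys of untreated mice that carry aquaporin-3 (Aqp3) as a mimetic of the acetylated protein (Q), as a mimetic of the deacetylated protein (R) or as wild type (WT). There were 5 libraries each of male Q, male R, male WT, female Q and female WT kidneys and 3 of female R kidneys, 28 in all. All mice had standard food and water and a light and dark cycle, and the kidneys had been freed of their capsule and frozen at zeitgeber time 2 to 5 h. The strain, the age and the way the mimetics were introduced were not given in the sources used here. Nor do the labels say that each library came from its own mouse, so p-values measure the spread between libraries, which may be partly technical.

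Cells of the thick ascending limb take up salt from the forming urine through an apical cotransporter of sodium, potassium and chloride. Potassium returns to the lumen through an apical channel, and chloride leaves on the blood side through channels that need a small accessory subunit. The segment lets no water follow, so it dilutes the urine and builds the concentration gradient of the medulla that the collecting duct, where Aqp3 lies in the basolateral membrane of principal cells, later draws on. Hormone and ion receptors on the blood side raise or lower this transport.

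Total counts per library ran from 14825417 to 21403804, and levels are given as CPM, counts scaled to the library total after TMM normalisation. The libraries labelled male Q replicate 4 and female Q replicate 5 stood apart in mitochondrial transcripts, which held 7.74% and 3.94% of their counts, against 9.56 to 12.1% in the other 26. The library labelled female WT replicate 2 showed Xist, which female cells use to silence an X chromosome, at 0.515 CPM, whereas the other 12 libraries from females had 214 to 435 CPM. The sum of 4 genes on the Y chromosome was 0.468 CPM in it and 121 to 164 CPM in the 15 male libraries. Fits without male Q replicate 4, female Q replicate 5 and female WT replicate 2 together were not among the planned ones. Aqp3 itself was at 93.4 to 137 CPM over all 28 libraries.

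The sequences just before the start of Slc12a1 and Umod, the most abundant of the 7 genes per kilobase, are shown because the windows before the starts were searched for motifs of sex hormone receptors. The sequences are the 250 bases before the gene start in RefSeq on GRCm38.p6, at chr2:125152350-125152599 on the plus strand for Slc12a1 and at chr7:119479263-119479512 on the minus strand for Umod, 5′ to 3′ along the gene. No base is in capitals, as neither window held a match.

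Slc12a1: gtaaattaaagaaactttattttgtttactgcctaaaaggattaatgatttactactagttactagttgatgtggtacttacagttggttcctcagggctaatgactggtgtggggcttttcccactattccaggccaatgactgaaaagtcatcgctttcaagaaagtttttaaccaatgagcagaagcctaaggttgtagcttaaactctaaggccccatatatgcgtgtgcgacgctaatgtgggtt

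Umod: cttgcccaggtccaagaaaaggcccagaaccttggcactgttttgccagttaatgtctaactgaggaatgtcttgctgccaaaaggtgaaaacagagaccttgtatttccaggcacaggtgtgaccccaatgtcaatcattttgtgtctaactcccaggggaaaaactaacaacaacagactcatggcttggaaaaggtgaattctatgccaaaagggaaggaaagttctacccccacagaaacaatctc

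Both strands were searched, and 6 of the 7 genes had a sequence in the RefSeq table. The androgen receptor motif, an inverted repeat of AGAACA around 3 free bases, with up to 2 mismatches over 12 letters, was in 0 of the 6 windows and in 1.56% of all 32851 such windows. The estrogen receptor motif, an inverted repeat of GGTCA around 3 free bases, with up to 1 mismatch over 10 letters, was in 0 of the 6 and in 0.715% of all. This says only that these letters are not in these windows.

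Set per kilobase of exon, the 7 genes kept one order of median level in both sexes. Umod stood highest with a median of 1075 CPM per kb in males and 1415 CPM per kb in females. Slc12a1 followed with 171 and 241 CPM per kb, Kcnj1 with 70.7 and 96.7 CPM per kb, and Bsnd with 22.4 and 28.7 CPM per kb, male median before female median. The receptors were lower, Ptger3 at 9.04 CPM per kb in males and 12.4 CPM per kb in females, and Casr at 5.74 and 8.15 CPM per kb. Enox1 was by far the lowest, at 0.23 CPM per kb in males and 0.547 CPM per kb in females, from 19 to 111 counts in a library. Only Casr and Ptger3 were neighbours whose ranges overlapped within a sex, Casr at 1.77 to 9.23 and Ptger3 at 6.32 to 11.1 CPM per kb in males. The exon lengths behind this order came from GENCODE mouse release 21 (GRCm38), whereas the counts rest on GRCm39.

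**Figure D1:**
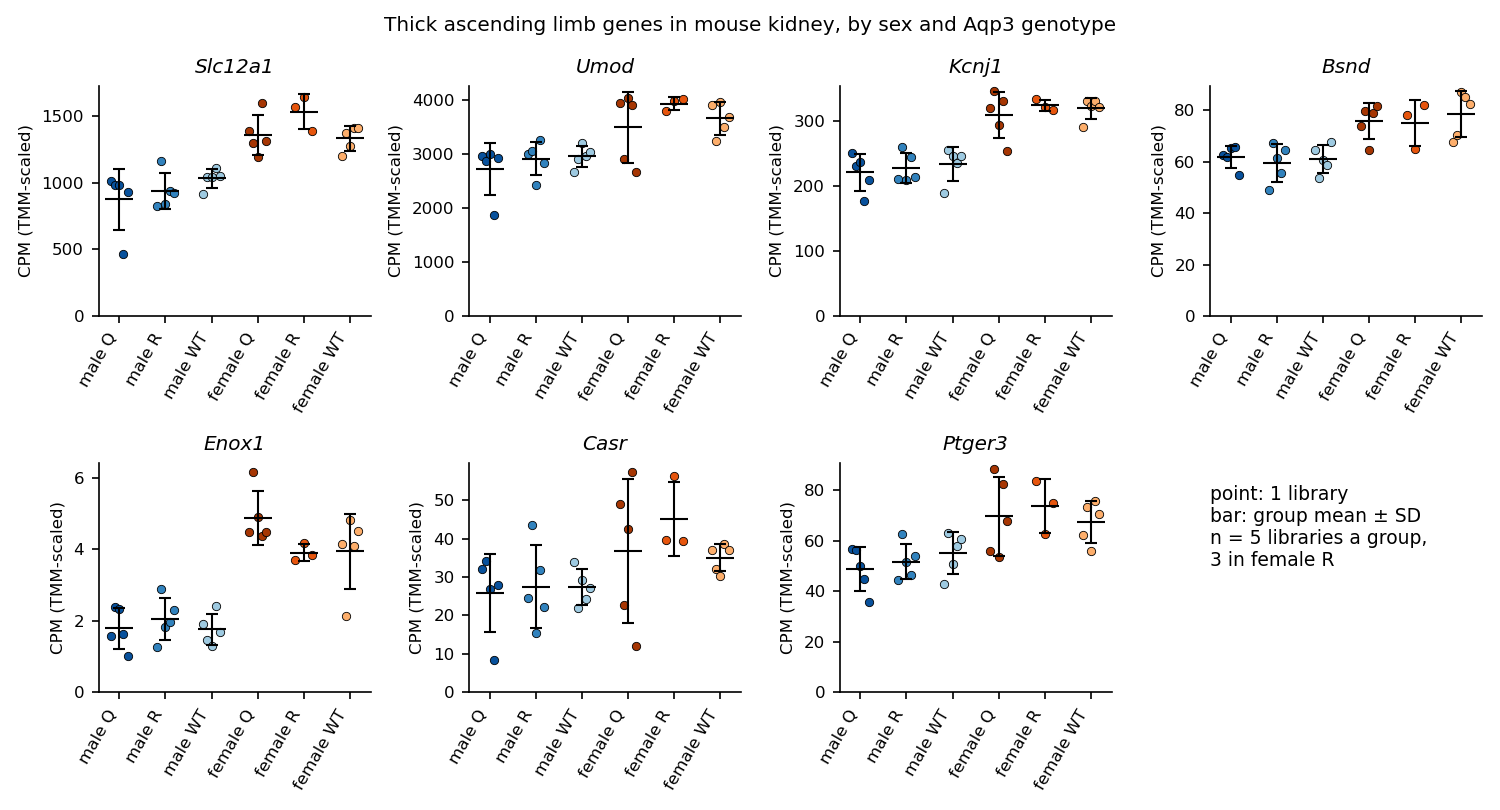
Level of each of the 7 genes in CPM (vertical axes from 0) in every library of the 6 groups, with group mean and SD (n = 5, and 3 in female R). Female groups sit above male groups for each gene, and for Slc12a1 the highest male library (1159 CPM) is below the lowest female library (1196 CPM). Within a sex the points of Q, R and WT overlap for Slc12a1 and Kcnj1.

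All 7 genes had a lower fitted level in male than in female kidneys within each of the 3 genotypes, though not every difference passed the test. In Q kidneys 6 of the 7 were called lower in males by edgeR's quasi-likelihood test at an adjusted p under 0.05, where 11.2% of all tested genes were called lower in males and 23.1% in either direction. In R kidneys 6 were called, against 7.01% of all genes lower and 14.1% in either direction, and in WT kidneys 3 were called (Kcnj1, Bsnd and Enox1), against 8.31% lower and 16.5% in either direction. The median log2 fold change of the 7, male over female, was -0.51 in Q, -0.51 in R and -0.36 in WT kidneys, against -0.02, -0.03 and -0.03 over all tested genes. The mean of the 3 sex contrasts, a comparison added after the data were seen, called all 7 lower in males, where it called 21.3% of all tested genes lower and 40.2% in either direction. Because the 7 genes were chosen with earlier results of these data known, their counts beside those of all genes are a description only. In whole kidney, fewer cells of the segment and less RNA per cell cannot be told apart.

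**Figure D2:**
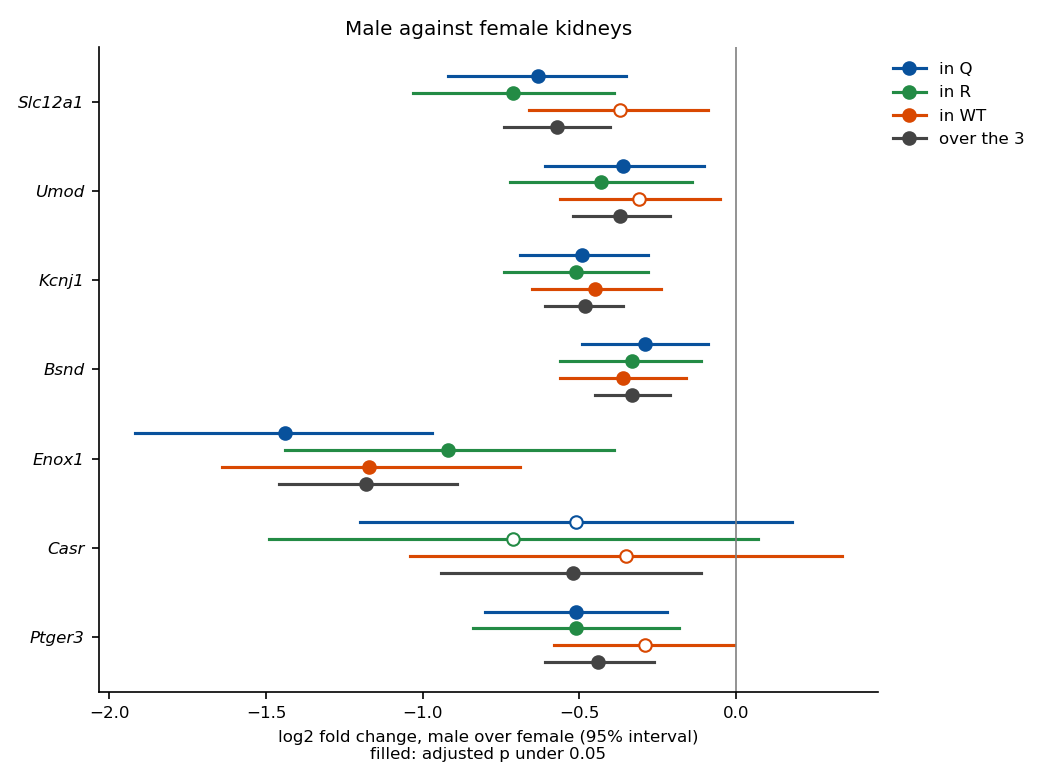
Log2 fold change of each gene, male over female, with 95% intervals, in Q, R and WT kidneys and over the 3 genotypes; filled points have an adjusted p under 0.05. Every point lies left of 0, Enox1 lies farthest left at -1.18 over the 3 genotypes, and Casr has the widest intervals.

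Slc12a1 encodes the apical cotransporter of sodium, potassium and chloride (NKCC2), the target of loop diuretics. In males it had 1011, 984, 986, 468 and 930 CPM in Q kidneys, 824, 1159, 843, 936 and 925 CPM in R kidneys and 917, 1041, 1044, 1108 and 1047 CPM in WT kidneys. In females it had 1387, 1298, 1196, 1601 and 1314 CPM in Q kidneys, 1565, 1646 and 1386 CPM in R kidneys and 1201, 1374, 1274, 1409 and 1411 CPM in WT kidneys. All 15 male libraries were below all 13 female libraries, which held for 1.94% of all tested genes, and no other of the 7 genes separated the sexes completely. By edgeR the log2 fold change was -0.57 over the 3 genotypes (SE 0.0844, adjusted p = 2.12e-06), a male level of 0.673 times the female level. Within genotypes it was -0.63 in Q (adjusted p = 0.00106), -0.71 in R (adjusted p = 0.002) and -0.37 in WT kidneys, where the adjusted p of 0.0662 missed the threshold and that of DESeq2 (0.0497) passed. Male Q replicate 4 was the lowest of all, and without the 3 libraries that stood apart the edgeR values were -0.48 in Q and -0.35 in WT kidneys, the last now called (adjusted p = 0.00506). In WT kidneys Slc12a1 was called in 0 of the 10 fits that each left out 1 library. Without female WT replicate 2 alone the edgeR adjusted p was 0.13.

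Kcnj1 encodes the apical potassium channel ROMK, which returns potassium to the lumen and is also made by principal cells. Its male levels were 251, 231, 237, 177 and 210 CPM in Q, 211, 260, 209, 245 and 214 CPM in R and 189, 256, 246, 236 and 246 CPM in WT kidneys. Its female levels were 321, 346, 294, 332 and 255 CPM in Q, 334, 322 and 318 CPM in R and 292, 331, 323, 332 and 322 CPM in WT kidneys. The sexes did not overlap within any genotype, and the highest male library (260 CPM, R) lay just above the lowest female library (255 CPM, Q replicate 5). Such separation, all male libraries below all female ones, was found for 6.37% of tested genes in Q, 12.1% in R and 7.27% in WT kidneys. The log2 fold change was alike in size in each genotype, at -0.49 in Q, -0.51 in R and -0.45 in WT kidneys, with edgeR adjusted p values of 0.000529, 0.00205 and 0.00168. Leaving out any single library of a contrast left Kcnj1 called in all 3 genotypes, and without the 3 libraries that stood apart it was -0.47 in Q and -0.42 in WT kidneys.

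Bsnd encodes barttin, the accessory subunit that the chloride channels of the blood side need, and it is made in other distal segments too. It ranged from 54.9 to 65.6 CPM in Q, 49.1 to 67.5 CPM in R and 53.6 to 67.6 CPM in WT kidneys of males. In females it ranged from 64.5 to 81.8 CPM in Q, 65 to 82.2 CPM in R and 67.9 to 87.3 CPM in WT kidneys. The difference between the sexes was the smallest of the 7 over the 3 genotypes, with -0.33 on the log2 scale (SE 0.059, edgeR adjusted p = 4.04e-05). It was called in Q, R and WT kidneys, at -0.29, -0.33 and -0.36, but in Q kidneys leaving out 1 of 5 of the 10 libraries (male replicates 2 and 5, female replicates 2, 4 and 5) ended the call, and in R kidneys leaving out 1 of 5 of the 8 (male replicates 1, 3 and 4, female replicates 1 and 3) did so. The adjusted p in these fits reached 0.082 in Q and 0.227 in R kidneys, and without a filter on low counts edgeR gave 0.0866 and 0.163. Without the 3 libraries that stood apart Bsnd was still called, at -0.28 in Q and -0.39 in WT kidneys.

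Umod encodes uromodulin, a protein that the limb secretes into the urine in large amounts. Male levels were 2969, 2875, 3006, 1881 and 2925 CPM in Q, 3006, 3055, 2436, 3257 and 2844 CPM in R and 2673, 2911, 3214, 2973 and 3045 CPM in WT kidneys. Female levels were 3958, 2910, 4050, 3911 and 2674 CPM in Q, 3798, 3993 and 4024 CPM in R and 3920, 3243, 3969, 3509 and 3702 CPM in WT kidneys. The sexes were apart in R and in WT kidneys, in WT narrowly, with 3214 CPM as the highest male and 3243 CPM as the lowest female level. All male libraries were below all female ones for 12.1% of tested genes in R and 7.27% in WT kidneys. The sexes overlapped in Q kidneys, where female replicates 2 and 5 fell among the males. The log2 fold change over the 3 genotypes was -0.37 (SE 0.0755, edgeR adjusted p = 0.000232). It was called in Q at -0.36 (adjusted p = 0.036) and in R at -0.43 (adjusted p = 0.0383), and not in WT kidneys at -0.31 (adjusted p = 0.0902). Without the 3 libraries that stood apart it was called in all 3 genotypes, at -0.33 in Q, -0.42 in R and -0.34 in WT kidneys. In WT kidneys, however, Umod was called in 0 of the 10 fits that each left out 1 library. The edgeR adjusted p there was 0.0891 without female WT replicate 2 alone. In Q kidneys, leaving out male Q replicate 4 alone gave -0.25 with an adjusted p of 0.0853. The call in Q kidneys also ended without female replicate 1, 3 or 4, and that in R kidneys without male replicate 1, 3 or 5 or any 1 of the 3 female libraries, with adjusted p up to 0.12. A replicate block ended both calls too, at adjusted p = 0.0519 in Q and 0.0907 in R kidneys. The gene shares exon bases with Gm44588 on the opposite strand, which had 0 counts.

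Casr encodes the calcium-sensing receptor, which in the limb lowers the transport of salt and calcium when blood calcium is high. In males it had 32.2, 34.1, 26.8, 8.34 and 27.8 CPM in Q, 24.6, 43.6, 15.4, 31.7 and 22.3 CPM in R and 34, 22, 29.3, 24.3 and 27.1 CPM in WT kidneys. In females it had 49, 22.8, 42.4, 57.3 and 12.2 CPM in Q, 39.7, 56.2 and 39.4 CPM in R and 37.1, 32.2, 30.3, 38.5 and 37 CPM in WT kidneys. The sexes overlapped in all 3 genotypes, and the lowest library of each sex was one of the Q libraries that stood apart in mitochondrial transcripts. In the Q and R groups of both sexes Casr had the highest coefficient of variation of the 7, up to 51% in female Q kidneys, against 10.1% in female WT kidneys. No genotype alone gave a call, with log2 fold changes of -0.51 in Q, -0.71 in R and -0.35 in WT kidneys. Over the 3 genotypes the value of -0.52 passed narrowly by edgeR (SE 0.202, adjusted p = 0.0408). That call held in 12 of the 28 fits that each left out 1 library, with adjusted p from 0.00761 to 0.0992, and it ended under a replicate block (adjusted p = 0.0727) and without a filter on low counts (adjusted p = 0.104). It ended without male Q replicate 3 or 4, male R replicate 1, 3 or 5, male WT replicate 2, 4 or 5, female Q replicate 1, 3 or 4, female R replicate 2 or 3, or female WT replicate 1, 4 or 5. Without the 3 libraries that stood apart Casr was -0.52 (edgeR adjusted p = 0.00699).

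Ptger3 encodes the EP3 receptor for prostaglandin E2, which couples to an inhibitory G protein and opposes vasopressin. It ranged from 35.9 to 56.5 CPM in Q, 44.5 to 62.4 CPM in R and 43 to 63.1 CPM in WT kidneys of males. In females it ranged from 53.5 to 88.2 CPM in Q, 62.5 to 83.4 CPM in R and 55.7 to 75.6 CPM in WT kidneys. The highest male and the lowest female R library were nearly equal, and the sexes overlapped in Q and WT kidneys. Log2 fold changes were -0.51 in Q (edgeR adjusted p = 0.00785), -0.51 in R (adjusted p = 0.029) and -0.29 in WT kidneys (adjusted p = 0.167). The call in R kidneys ended on leaving out male replicate 1, 3 or 4 or female replicate 1 or 3, with adjusted p up to 0.18. Without the 3 libraries that stood apart Ptger3 was -0.49 in Q and -0.25 in WT kidneys, and of these 2 genotypes it was called in Q.

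Enox1 encodes a cell-surface enzyme that oxidises hydroquinones and NADH and exchanges disulfides and thiols. In males it had 1.57, 2.4, 2.34, 1.62 and 1.03 CPM in Q, 1.28, 2.88, 1.83, 1.96 and 2.31 CPM in R and 1.91, 1.47, 1.31, 2.42 and 1.7 CPM in WT kidneys. In females it had 4.49, 6.17, 4.91, 4.36 and 4.48 CPM in Q, 3.71, 4.17 and 3.84 CPM in R and 4.16, 2.15, 4.83, 4.1 and 4.51 CPM in WT kidneys. The one female library within the male range was the library labelled female WT replicate 2, which also lacked Xist. The log2 fold change was -1.44 in Q (edgeR adjusted p = 1.91e-05), -0.92 in R (adjusted p = 0.0141) and -1.17 in WT kidneys (adjusted p = 0.000514), and -1.32 in WT and -1.44 in Q kidneys without the 3 libraries that stood apart. Over the 3 genotypes the male level was 0.443 times the female level (log2 -1.18, SE 0.139, adjusted p = 4.18e-08). In R kidneys the call ended without female replicate 2 (adjusted p = 0.0625).

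The sex difference of Enox1 was larger in size than that of the other 6 genes in each genotype. As a description chosen after the values were seen, its log2 CPM minus the mean log2 CPM of the other 6 was -6.63 ± 0.474 in male and -5.65 ± 0.323 in female Q kidneys (SD, n = 5 each). In R kidneys this difference was -6.51 ± 0.287 in males and -6.12 ± 0.0892 in females (SD, n = 5 and 3), and in WT kidneys -6.77 ± 0.346 in males and -6.03 ± 0.442 in females (SD, n = 5 each). The male mean was lower by more than either SD in every genotype, and in WT kidneys without female WT replicate 2 the means were -6.77 in males and -5.84 in females. Enox1 overlaps Gm6994 on the opposite strand, which had 6 counts in all against 1577 for Enox1.

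The Aqp3 mimetics were set against WT, and against each other, to ask whether the acetylation state of aquaporin-3 goes with a change in these genes. In males, Slc12a1 averaged 876 ± 230 CPM in Q and 937 ± 133 CPM in R kidneys, against 1031 ± 69.9 CPM in WT kidneys (SD, n = 5 each). In females it averaged 1359 ± 151 CPM in Q (n = 5) and 1533 ± 133 CPM in R (n = 3), against 1334 ± 92.7 CPM in WT kidneys (SD, n = 5). For Kcnj1, male means were 221 ± 28.9 CPM in Q and 228 ± 23.2 CPM in R kidneys, against 234 ± 26.2 CPM in WT kidneys (SD, n = 5 each). The groups of 1 sex overlapped for both genes.

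None of the 7 genes was called in any of the 9 comparisons of genotypes by edgeR: 0 of 7 passed at an adjusted p under 0.05, 0 of 7 passed unadjusted at 0.05, and by DESeq2 also 0 of 7 passed. Of all tested genes, 0% were called in each of these 9 comparisons. Q and R were set against the same WT libraries, so the comparisons share controls. Slc12a1 in male Q against WT kidneys had the lowest p of the male and female comparisons with WT, with a log2 value of -0.24 (95% interval -0.52 to 0.05, edgeR adjusted p = 0.917), and it was -0.08 without male Q replicate 4. In male R against WT kidneys it was -0.14 (-0.42 to 0.15), in female Q against WT 0.03 (-0.26 to 0.31) and in female R against WT 0.20 (-0.13 to 0.53).

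The intervals differ in how large a change they leave room for. Bsnd was the narrowest, from -0.18 to 0.22 in male Q and from -0.23 to 0.16 in male R against WT kidneys. Kcnj1 lay between -0.29 and 0.12 in male Q and between -0.25 and 0.16 in female Q against WT kidneys. Casr had the widest, from -0.78 to 0.61 in male Q and from -0.42 to 1.15 in female R against WT kidneys. Enox1 was 0.31 in female Q against WT kidneys, between -0.14 and 0.75, and 0.15 without female WT replicate 2. Umod at -0.12 (-0.37 to 0.14) and Ptger3 at -0.18 (-0.47 to 0.11) in male Q against WT kidneys also spanned 0. Without male Q replicate 4 the same comparison gave -0.01 for Umod, -0.15 for Ptger3, -0.02 for Kcnj1, -0.00273 for Bsnd and 0.14 for Casr.

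**Figure D3:**
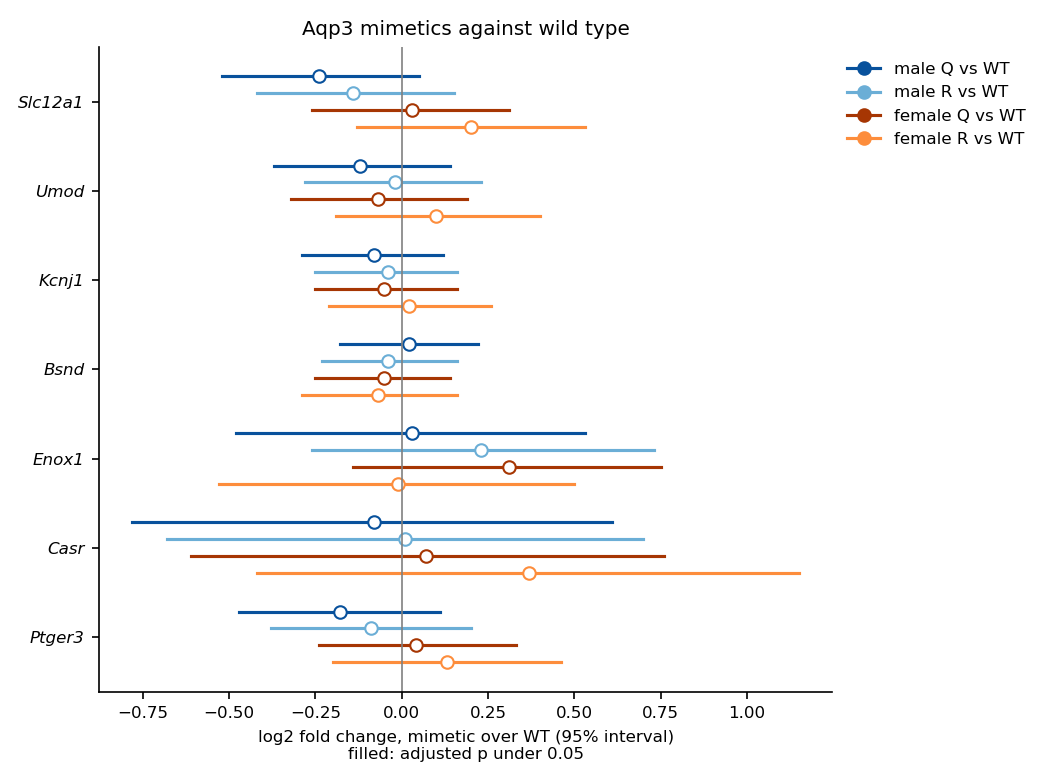
Log2 fold change of each gene for the Q and R mimetics over WT in males and females, with 95% intervals; a filled point would have an adjusted p under 0.05. All points are open and every interval crosses 0, from the narrow ones of Bsnd to that of Casr in female R, which reaches 1.15.

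Whether a mimetic acted differently in the sexes was tested as an interaction. For Q against WT and for R against WT, edgeR called 0 of 7 genes and 0% of all tested genes. In both, 0 of the 7 passed unadjusted at 0.05 and 0 of the 7 by DESeq2. Slc12a1 had the lowest p of the 7 in both, with interaction values of -0.26 for Q (95% interval -0.66 to 0.14) and -0.34 for R (-0.77 to 0.10).

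The other genes of the limb followed the sex difference only in part. Of 32 such genes in 5 lists, chosen with earlier results of these data known, 30 were tested. Over the 3 genotypes edgeR called 13 lower and 5 higher in males and 12 not at all, with a median log2 fold change of -0.21 against -0.04 over all genes. In that comparison 40.2% of all tested genes were called, and 21.3% were called lower in males. Within genotypes 7 were lower and 5 higher in Q, 8 lower and 2 higher in R and 4 lower and 2 higher in WT kidneys. Of all tested genes, 11.2% were called lower in males in Q, 7.01% in R and 8.31% in WT kidneys. In either direction 23.1%, 14.1% and 16.5% of all tested genes were called. In the genotype comparisons 0 of the 30 were called, and 2 (Cab39l and Pth1r) had an unadjusted p under 0.05 in male Q against WT kidneys, as did 897 of all 17573 tested genes. The 2 genes not tested, Cldn14 and the vasopressin receptor gene Avpr2, had 62 counts each over all libraries.

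On the blood side, 3 of 8 genes of basolateral exit and apical exchange were lower in males over the 3 genotypes and 1 was higher. That comparison called 40.2% of all tested genes, and 21.3% as lower in males. Kcnj10, a basolateral potassium channel, averaged 53.8 ± 6.99 CPM in male and 66.9 ± 19.7 CPM in female Q kidneys (SD, n = 5 each). The female Q libraries ran from 33.9 to 81.2 CPM. In WT kidneys Kcnj10 averaged 52.9 ± 5.88 CPM in males and 67.5 ± 2.69 CPM in females (SD, n = 5 each). Over the 3 genotypes it gave a log2 fold change of -0.35 (edgeR adjusted p = 0.00275), close to the -0.33 of Bsnd, but it was not called within Q (adjusted p = 0.134), R (0.153) or WT kidneys (0.112).

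The claudin genes of the limb lists did not move one way. Cldn19 (-0.42) and Cldn16 (-0.25), which form the pore for calcium and magnesium, were lower in males over the 3 genotypes, and Cldn10 was higher (0.23, edgeR adjusted p = 0.00148). Counts per gene in whole kidney do not show which cells or which transcripts of Cldn10 differed. Cldn16 was not called within any single genotype. Of the 9 kinases and trafficking regulators, 4 were lower in males and 0 higher, where 21.3% of all tested genes were called lower. Maged2, which in humans is needed for the limb's salt transport before birth, averaged 14.8 ± 1.6 CPM in male and 27.2 ± 3.27 CPM in female Q kidneys (SD, n = 5 each). Within genotypes Maged2 gave -0.88 in Q, -0.66 in R and -0.65 in WT kidneys. Over the 3 genotypes its value was -0.73 (edgeR adjusted p = 2.91e-11). Wnk1 gave -0.38 and Stk39 -0.33, kinases of the pathway that activates the cotransporter. For Maged2, Wnk1 and Stk39 too, counts per gene in whole kidney do not show which cells or which transcripts differed.

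Among the hormone genes, Adcy6, the adenylyl cyclase that serves vasopressin signalling, was lower in males (-0.55) and Pth1r, the parathyroid hormone receptor also made by the proximal tubule, was higher (0.42). Gcgr, the glucagon receptor gene, gave -0.19 and was not called (edgeR adjusted p = 0.0672). Of 6 secreted products and transcription factors, 3 were lower and 2 higher in males, where 40.2% of all tested genes were called in either direction. Egf, the precursor of epidermal growth factor, averaged 1055 ± 282 CPM in male and 1581 ± 184 CPM in female Q kidneys (SD, n = 5 each). The male Q libraries ran from 556 to 1246 CPM of Egf. The log2 fold change of Egf was -0.61 over the 3 genotypes, -0.58 in Q, -0.83 in R and -0.42 in WT kidneys. The transcription factor gene Irx1 (0.65) was higher in males.

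For the macula densa, the patch of sensing cells at the end of the limb, 3 genes were listed, all at low level. Nos1 had 499 counts and Ptgs2 249 counts over all libraries. Counts in whole kidney do not show which cells made these transcripts. The summed level of the 3 genes ran from 0.753 to 2.47 CPM in males and from 1.17 to 3.34 CPM in females. Over the 3 genotypes Nos1, the neuronal nitric oxide synthase, gave -0.71 (edgeR adjusted p = 0.0236) and Ptgs2, the cyclooxygenase that makes prostaglandins there, gave -0.93 (adjusted p = 0.0298), and neither was called within any single genotype. Pappa2, a secreted protease, gave -0.19 and was not called. The comparison over the 3 genotypes called 40.2% of all tested genes, and 21.3% as lower in males.

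Markers of other kidney cells differed between the sexes as well, in a comparison that called 40.2% of all tested genes. Proximal tubule markers summed to 12309 to 14493 CPM in males and 8214 to 11536 CPM in females, without overlap, though 3 of the 7 were called higher in males and 3 lower over the 3 genotypes. Distal convoluted tubule markers (4 of 5 called lower in males) summed to 1073 to 1708 CPM in males and 1256 to 2185 CPM in females. For intercalated cells, all 5 markers were called lower in males, and their sums were 189 to 258 CPM in males and 249 to 383 CPM in females.

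Podocyte markers, of which 5 of 5 were called lower in males, summed to 201 to 308 CPM in males and 269 to 379 CPM in females. In the same comparison 21.3% of all tested genes were called lower in males. Endothelial markers (2 of 5 called lower) summed to 325 to 428 CPM in males and 399 to 520 CPM in females. The 5 principal cell markers, 2 of them called lower, had sums of 545 to 924 CPM in males and 555 to 1033 CPM in females. None of the markers of these 6 cell types was at 0 in any library. The list medians were -0.51 for intercalated cells, -0.45 for the distal convoluted tubule and -0.42 for podocytes, beside -0.48 for the 7 limb genes. The thin limb and inner medulla list had a median of -0.46, with 2 of 5 genes called lower in males and sums of 196 to 415 CPM in males and 216 to 571 CPM in females. The 5 adipocyte genes had a median of -0.83, with 0 called, and sums of 2.06 to 83.8 CPM in males and 0.429 to 126 CPM in females; 2 of them, Cidec and Ucp1, were at 0 in some library. The part of these cell types in the sex difference of the 7 genes was not tested.

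**Figure D4:**
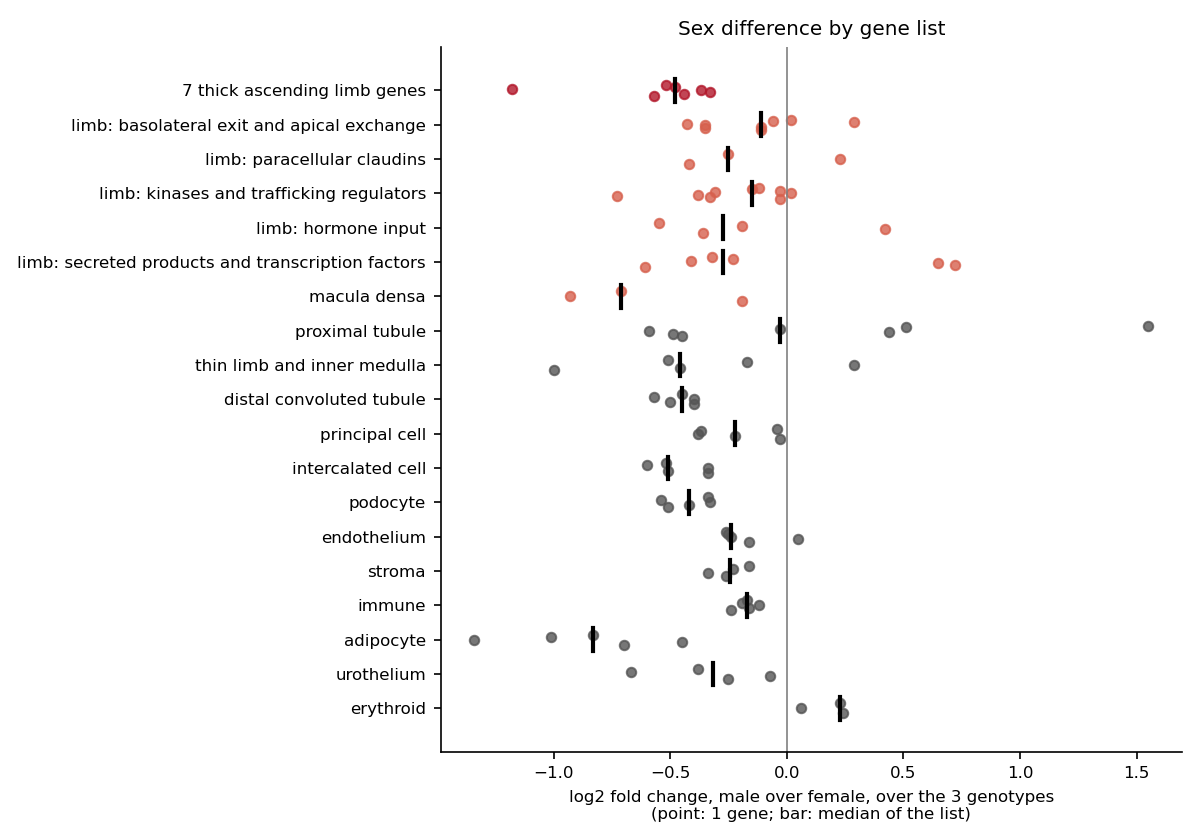
Log2 fold change over the 3 genotypes, male over female, of each tested gene in the lists of the limb and of other cell types, with the list median as a bar. The 7 limb genes, chosen with earlier results of these data known, lie between -1.18 and -0.33. The distal convoluted tubule, intercalated cell and podocyte lists, among others, also lie wholly below 0. The 5 other limb lists and the proximal tubule list hold genes on both sides of 0. Limb and macula densa lists are in red shades.

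Within groups the 7 genes did not all vary together. Log2 CPM with the group mean taken off was correlated for the 21 pairs over 28 libraries, by permutation within groups with adjustment over the 21 pairs. Of these, 17 had a positive r and 2 passed at an adjusted p under 0.05. The cotransporter Slc12a1 and the potassium channel Kcnj1 had r = 0.72 (permutation p = 0.00022, adjusted 0.00462) and rho = 0.66 (permutation p = 0.0004, adjusted 0.0084). Their r was 0.67 without the 2 libraries farthest from the median of Slc12a1 and 0.70 without the 3 libraries that stood apart.

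Umod and Casr had r = 0.85 (permutation p = 0.00099, adjusted 0.0104) and rho = 0.73 (permutation p = 0.00259, adjusted 0.0181). Without the 2 libraries farthest from the median of Umod r was 0.75. Without the 3 libraries that stood apart r was 0.63 and the adjusted permutation p was 0.116, so the call rests on those libraries. Kcnj1 and Ptger3 had r = 0.56 (permutation p = 0.0103, adjusted 0.0523) and rho = 0.64 (permutation p = 0.00182, adjusted 0.0181), and r = 0.67 (adjusted permutation p = 0.00924) without the 3. Umod and Bsnd had the lowest r of the 21, at -0.27 (permutation p = 0.16, adjusted 0.279), with rho = -0.32 (permutation p = 0.093, adjusted 0.217).

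**Figure D5:**
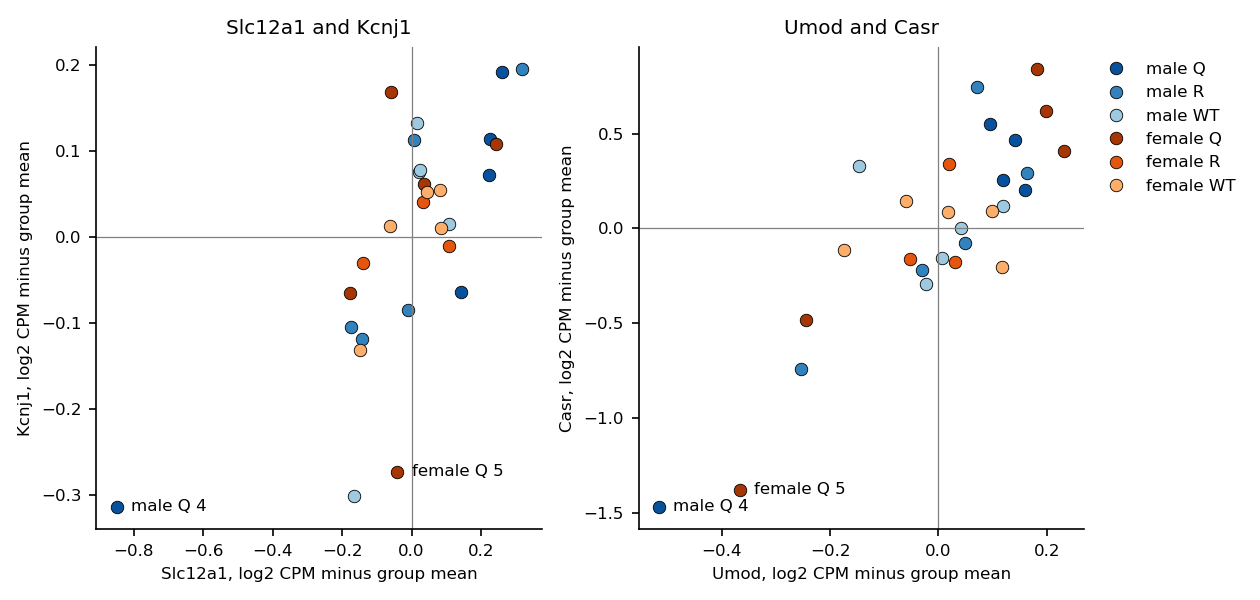
Deviation of each of the 28 libraries from its group mean in log2 CPM, Slc12a1 against Kcnj1 on the left (r = 0.72) and Umod against Casr on the right (r = 0.85), coloured by group. Male Q replicate 4 lies at the lower left of both panels, and the right panel has it and female Q replicate 5 far below the rest.

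The genes most like the 7 were sought by the correlation, over the 28 libraries with group means removed, of each gene's log2 CPM with the mean standardised level of the 7. Of 12993 genes compared, the highest r was that of Faf2 (0.87), a factor of protein degradation at the endoplasmic reticulum. Epb41l1 (0.85), a cytoskeletal adaptor, and Prom2 (0.84), a membrane protein of epithelia, came next. Kalrn (0.84), Dapk1 (0.83) and Fubp1 (0.83) completed the 6, and without the 3 libraries that stood apart the 6 values lay between 0.65 and 0.82. These values share the libraries and their quality, and are a description only. Of the 6, Prom2 was lower in males over the 3 genotypes (log2 -0.38, edgeR adjusted p = 0.000136), as was Epb41l1 (-0.23, adjusted p = 0.0458), and Faf2 was not called (0.07).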

How the data were processed

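The authors deposited unscaled counts of fragments per gene. Per the file headers they were made with featureCounts from Subread 2.0.1 on Ensembl release 107 (GRCm39), with no strand option. Further tools in the submitters' processing notes are SAMtools 1.6, DESeq2 1.38.3 and Trim Galore 0.6.7. No source used here names the aligner. Symbols matched 52073 of 56748 genes, and rows without one held 0.669% of counts.

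In R 4.3.3 with edgeR 4.0.16, filterByExpr on the 6 groups kept 17573 genes with 99.91% of counts, scaled by TMM. One model of 6 group means (22 residual degrees of freedom, all 28 libraries) gave 14 planned contrasts and 1 added, tested by robust quasi-likelihood F with Benjamini-Hochberg adjustment over all tested genes. The test was checked on simulated counts. SE were derived from F. Log2 CPM for correlations used a prior count of 2, and 100000 shuffles were drawn. DESeq2 1.42.0 was an alternative. Of the limb lists, the 3 genes with the smallest p were named. Cab39l was named after its values were seen. Some genes of the lists, though counted, are not reported here by name. The 7 genes and all lists were chosen with earlier results of these data known.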

Additional observations from a re-analysis of the deposited data

Results flagged for a closer look

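Each gene was examined in the 5 groups of 5 libraries for a lowest or highest library far from the rest, as the gap to its neighbour over the range of the group, against a critical value of 0.71. Of 35 such sets 5 were marked, and chance marks about 1 in 20. In male Q kidneys, replicate 4 had 468 CPM of Slc12a1, against 930 CPM in the next library. The same library had 1881 CPM of Umod, against 2875 CPM in the next, and 8.34 CPM of Casr, against 26.8 CPM in the next. This library also had the low share of mitochondrial transcripts (7.74%), while its Bsnd level of 65.6 CPM was the highest of the male Q group. In female WT kidneys, replicate 1 had 292 CPM of Kcnj1, against 322 CPM in the next library. The library labelled female WT replicate 2 had 2.15 CPM of Enox1, against 4.1 CPM in the next, and is the one that lacked Xist.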

How the results depend on the processing

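The male over female values of the 7 genes kept their sign under every alternative run, and 0 of the 7 were called in every genotype comparison and interaction. In WT kidneys the number of the 7 called was 5 without male Q replicate 4 and female Q replicate 5, 5 without these and female WT replicate 2, and 6 with only the WT groups in the fit, against 3. In Q kidneys it was 3 with only the Q groups, against 6, as Umod (adjusted p = 0.198), Bsnd (0.0873) and Ptger3 (0.0614) missed edgeR's threshold. Leaving out each library in turn gave 3 in WT, 4 to 6 in Q, 3 to 6 in R and 6 to 7 over the 3 genotypes. Correlated pairs numbered 2, but 5 with a prior count of 0.5, 8 with replicate means removed, 4 without the 2 Q libraries and 1 to 8 over single libraries left out. Over all genes, called numbers moved by over 1.5 times in Q (2240 with only the Q groups, against 4060) and in R kidneys (4171 without the 2 Q libraries and 4192 without all 3, against 2474, and 1608 to 2694 over single libraries left out). The causes were not tested.

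Same-numbered libraries of Q or R and of WT within a sex were correlated after group means were removed. Of these 18 pairs 1 had a correlation over 0.1, in a range of -0.085 to 0.104. Pairs of Q with R libraries and of male with female libraries were not checked. With a replicate block 3 of the 7 were called in WT, 5 in Q, 5 in R and 6 over the 3 genotypes. The block turned Casr in male R against WT to -0.02 and Kcnj1 in female R against WT to -0.000269. Leaving out the 2 Q libraries, or all 3, turned Bsnd (-0.00273, -0.00268) and Casr (0.14, 0.14) in male Q against WT and Kcnj1 in female Q against WT (0.02, 0.03), and the first of these turned Umod in female Q against WT (0.02). Single libraries left out gave values on both sides of 0 in male Q against WT for Bsnd (-0.02 to 0.06), Enox1 (-0.10 to 0.18) and Casr (-0.20 to 0.14). In male R against WT they did so for Umod (-0.06 to 0.04), Bsnd (-0.08 to 0.03) and Casr (-0.22 to 0.16). In female Q against WT they did so for Slc12a1 (-0.03 to 0.07), Umod (-0.12 to 0.02), Kcnj1 (-0.09 to 0.02), Bsnd (-0.10 to 0.00276), Casr (-0.14 to 0.30) and Ptger3 (-0.05 to 0.13). In female R against WT they did so for Kcnj1 (-0.01 to 0.04), Bsnd (-0.13 to 0.03) and Enox1 (-0.17 to 0.07). Enox1 rests on 19 to 111 counts in a library.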
